A study of Mus musculus with 48 samples.

Results

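The high fat diet was compared with chow in wild-type mice of a Barrett oesophagus study, in 6 of the series' 48 arrays. The members were chosen by their labels alone: 3 arrays of genotype WT from the Freising facility on HFD (high fat diet) and 3 arrays of genotype WT from the same facility on chow. All 6 samples came from mice of 12 months, and none carried the transgene of the study, an interleukin-1 beta transgene (genotype pL2) driven by a promoter for squamous epithelium of the oesophagus and forestomach. RNA came from whole tissue of the squamocolumnar junction and cardia, where the squamous oesophagus meets the glandular stomach. The composition and duration of the diet, the strain, the sex, the time of day and the feeding state at dissection, and whether litters were shared are not given in the sources used here. The labels also do not say that the 3 arrays of a group came from 3 animals, so the p-values measure spread between samples. The main fit estimated that spread within the groups of all 48 arrays, not from these 6 samples alone.

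In a wild-type mouse this junction holds stratified squamous epithelium beside surface mucous, neck, chief, parietal and endocrine cells of the stomach, over smooth muscle with nerves, vessels and immune cells. Its epithelium meets food, acid, bile and microbes, and it answers microbes with secreted lectins of the Reg3 family, lysozyme and hydrogen peroxide from dual oxidases. Interferons, released when cells sense viral or other foreign nucleic acid, act through cell surface receptors on a large set of antiviral genes. Dietary fat is known to act on lipid genes through the fatty acid sensors of the PPAR family and, with cholesterol, on the sterol-sensing factor Srebf2, and feeding times are known to set peripheral circadian clocks.

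The arrays carried both epithelia. Krt13, a squamous keratin, had a log2 signal of 11.62 to 11.98 in the HFD arrays and 11.64 to 11.95 in the chow arrays. Gkn1, a surface mucous cell secretion, had 12.05 to 12.37 and 12.58 to 12.63. Pgc, the chief cell pepsinogen, had 13.00 to 13.18 on HFD and 13.16 to 13.29 on chow. Pairs of arrays of a group correlated at 0.972 to 0.988 (HFD) and 0.975 to 0.985 (chow) across the 15242 genes tested. The array number limits the precision of every value below.

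On HFD, 25 of the 15242 genes fell (0.164%) and 0 rose (0.0%) at a limma adjusted p below 0.05. At an unadjusted p below 0.05, 408 genes were lower and 252 higher. These 660 genes were fewer than the 872 of the same diet contrast in pL2 mice, where 0 genes were called. All values are log2 signals, so a difference of 1 is a 2-fold change, and differences are HFD minus chow with the standard error of the fit. In all 25 genes the 3 HFD arrays lay below the 3 chow arrays, with differences from -3.49 to -0.98. In 5 of them, Mx1, Mx2, Gm20234, Bst2 and B3gnt7, the HFD mean lay below the median of every array, so their fold values rest on low HFD signals. In each of these 5 genes the 3 chow arrays lay above every array median, which was enough to enter the test. Entry to the test and the call could thus rest on the same 3 arrays. Over all genes tested, 1321 (8.67%) had every HFD array below every chow array and 1089 (7.14%) every HFD array above. With a difference of at least 2-fold as well, 85 genes were lower (0.558%) and 6 higher (0.0394%). Of the 25 genes, 5 were still called without chow replicate 2 and 5 without HFD replicate 2, 7 without HFD replicate 1, 16 without chow replicate 3, 19 without chow replicate 1 and 20 without HFD replicate 3. With the 12 Freising arrays alone 11 genes were called, 9 of them among the 25. Over all genes tested the signs were balanced, with 50.9% positive and a median difference of 0.005.

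Of the 25 genes, 18 belonged to a list of 49 tested interferon response genes. The other 7 were Rnf213, Parp12, Phf11c, Apol9a, the non-coding Gm20234, Reg3g and B3gnt7. Rnf213, Parp12, Phf11c and Apol9a are themselves known to be induced by interferon, and Gm20234, named here after its values were seen, lies within the interferon-induced gene Slfn2. Reg3g and B3gnt7 are epithelial genes. Among the 85 genes lower by 2-fold without overlap, 30 belonged to an interferon list and 55 did not.

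**Figure D1:**
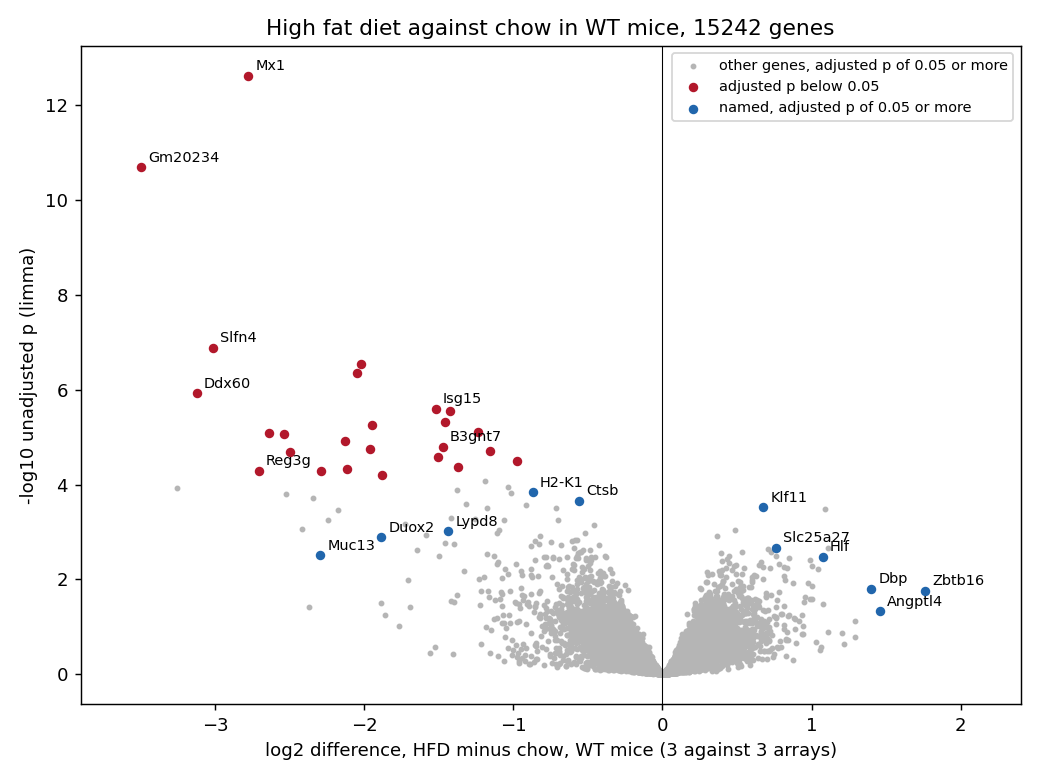
Each point is 1 of 15242 genes; the horizontal axis gives the log2 difference HFD minus chow in WT mice (3 against 3 arrays), and the vertical axis gives -log10 of the unadjusted p from limma. The 25 genes with an adjusted p below 0.05 (red) all lie left of 0, and the named genes with a positive difference, up to Zbtb16 at 1.76, stay below Mx1 and Reg3g in height.

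Reg3g, a secreted C-type lectin that kills Gram-positive bacteria at mucosal surfaces, fell on HFD. Its log2 signal was 5.67, 4.83 and 4.65 in the 3 HFD arrays and 7.72, 7.60 and 7.95 in the 3 chow arrays. The highest HFD array stayed well below the lowest chow array. The difference was -2.71 ± 0.59, a 6.53-fold lower signal (limma adjusted p = 0.033). It lost the threshold when any of the 6 arrays was left out, with adjusted p between 0.0728 and 0.258 and differences between -3.02 and -2.51. In the 42 arrays outside the comparison Reg3g ran from 2.61 to 10.68, and 35 of them lay above the lowest chow array.

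B3gnt7, a glycosyltransferase that extends the sugar chains of keratan sulphate and mucins, also fell. It stood at 3.89, 4.02 and 3.51 on HFD against 5.77, 4.54 and 5.53 on chow. The difference was -1.47 ± 0.29 (limma adjusted p = 0.0162). A second array entry for B3gnt7 differed by 0.02, and the mean of both entries gave -0.73 with an adjusted p of 0.222. The fits of the 6 compared arrays alone and of the 12 Freising arrays gave B3gnt7 adjusted p of 0.187 and 0.354.

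Reg3g was the only called member of a list of 23 tested epithelial antimicrobial genes. Of the list, 16 were lower and 7 higher, 6 were lower without overlap (26.1% against 8.67% of all genes), and the median difference was -0.34. Lypd8, which keeps flagellated bacteria off the epithelium, had 11.08, 11.31 and 11.43 on HFD and 12.54, 12.86 and 12.73 on chow. Every HFD array was below every chow array by more than 1 log2 unit. Its difference of -1.44 ± 0.40 did not pass over all genes (limma adjusted p = 0.279), but it passed in the fit of the 6 arrays alone (adjusted p = 0.0153) and not in that of the 12 Freising arrays (0.246).

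Duox2, the oxidase that makes hydrogen peroxide at the apical surface, stood at 6.45, 6.17 and 5.44 on HFD and 8.08, 7.61 and 8.01 on chow. The groups did not overlap, and the difference was -1.88 ± 0.54 (limma adjusted p = 0.341). Lyz1, the lysozyme of Paneth-type cells, had 4.94, 4.75 and 6.46 against 8.60, 7.31 and 7.36. The groups did not overlap, and the difference was -2.37 ± 1.10 with an adjusted p of 1.0. Other members did not share the pattern: Pigr, the transporter of secretory antibodies, differed by 0.05 ± 0.48, and Nos2, the inducible nitric oxide synthase, by -0.14 ± 0.71. Reg3b, the sister lectin of Reg3g, had 3.54, 3.60 and 4.10 on HFD against 7.30, 4.25 and 3.16 on chow, with 1 chow array far above the other 5, and a difference of -1.16 ± 1.22.

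**Figure D2:**
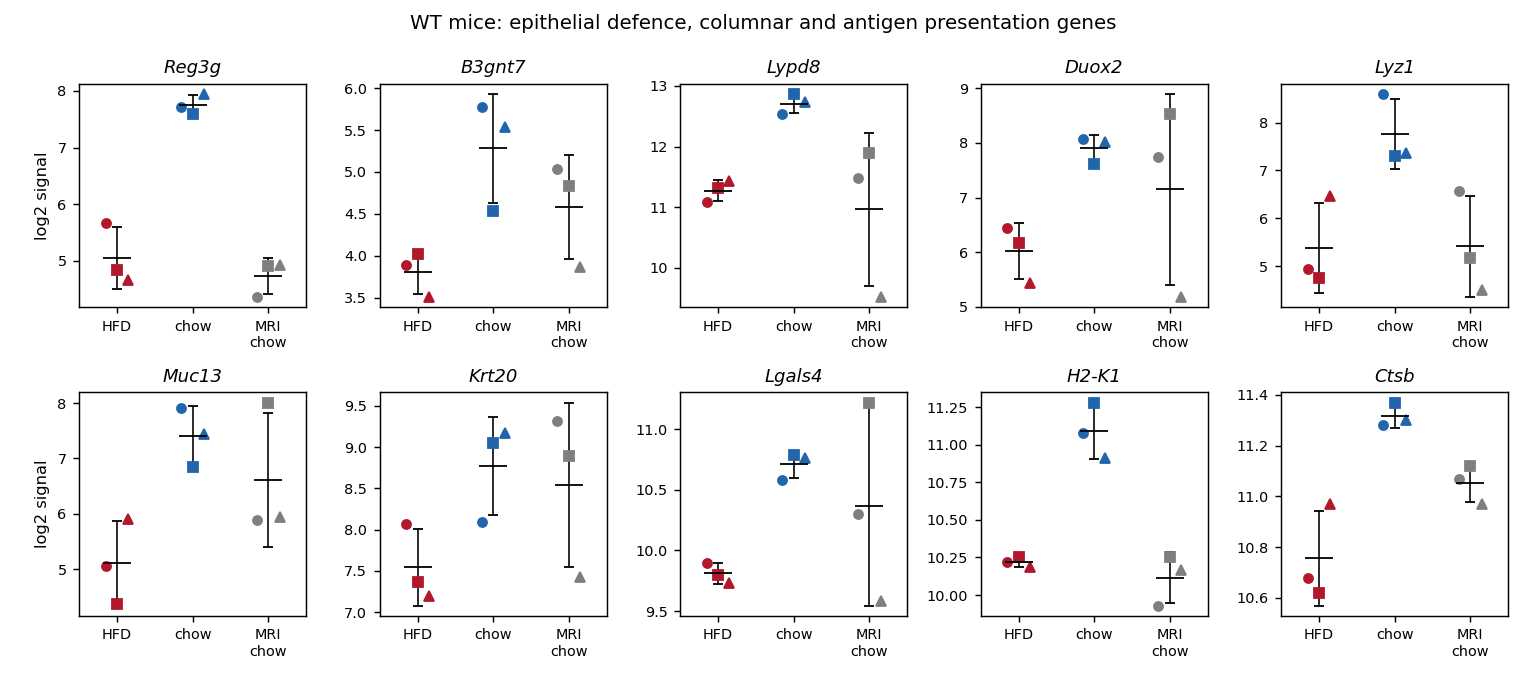
Log2 signal of 10 genes in WT mice on HFD and chow from Freising and on chow from MRI, the study's other facility; circles, squares and triangles are replicates 1, 2 and 3 and the bars give the mean ± SD (n = 3). In all 10 panels the 3 HFD points lie below the 3 chow points of Freising, while the MRI points fall near either group depending on the gene.

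Most genes of the columnar, enterocyte and gastric pit lists were lower on HFD, without any called. Other glandular lists differed less. The 12 neck and chief cell genes had a median of -0.08 and 0 lower without overlap. The 17 parietal cell genes had a median of -0.18 and 3 lower without overlap, and of 18 endocrine cell genes 9 were lower and 9 higher. Of 17 tested columnar epithelium genes, 14 were lower and 3 higher, 9 were lower without overlap (52.9% against 8.67% of all genes), and the median was -0.31. Of 20 enterocyte genes, 18 were lower, 7 without overlap, with a median of -0.39. Of 16 gastric pit genes, 14 were lower, 6 without overlap, with a median of -0.27. The columnar and enterocyte lists share Lgals4 and Vil1, and the columnar and gastric pit lists share Tff1 and Tff2. Tff2 is also on the neck and chief cell list. The gastric pit median was -0.15 without HFD replicate 3 and -0.15 with cyclic loess.

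Lgals4, a lectin of the brush border, was tightly grouped at 9.90, 9.80 and 9.73 on HFD and 10.58, 10.79 and 10.76 on chow. Vil1, which bundles actin in microvilli, had 6.18, 6.13 and 6.27 on HFD against 7.24, 7.36 and 7.22 on chow. In both genes the arrays of a diet lay close together and the groups were far apart. Their differences were -0.90 ± 0.40 and -1.08 ± 0.60, with limma adjusted p of 1.0 in the full fit and of 0.0487 and 0.0192 in the fit of the 6 arrays alone. With the 12 Freising arrays the adjusted p of Lgals4 and Vil1 was 0.703 and 0.574. Krt20, a keratin of differentiated surface cells, stood at 8.07, 7.37 and 7.19 on HFD and 8.09, 9.05 and 9.17 on chow, so that its nearest arrays almost met.

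Muc13, a membrane mucin of glandular surfaces, had 5.05, 4.37 and 5.90 on HFD and 7.92, 6.84 and 7.44 on chow. Its difference of -2.30 ± 0.72 was 4.91-fold (limma adjusted p = 0.53). Capn9, a stomach calpain, had 7.42, 7.02 and 7.07 against 8.18, 8.35 and 8.33, a difference of -1.12 ± 0.48 (adjusted p = 1.0). Among secreted products of the same cells, Gkn1 differed by -0.36 ± 0.28, Gkn2 by -0.24 ± 0.13 and Tff1 by -0.30 ± 0.24, each without overlap, and Muc5ac by -0.19 ± 0.30 with overlap. The squamous lists had medians of 0.12 (basal, 14 genes) and 0.10 (suprabasal, 31 genes), and Krt14, a basal keratin, differed by -0.01 ± 0.33. The suprabasal median turned negative in 3 of the 16 alternative settings. In whole tissue fewer cells of a type and less RNA per cell cannot be told apart. The enterocyte list mean was 5.57, 5.57 and 5.58 on HFD and 6.39, 5.88 and 5.79 on chow, and without chow replicate 1 the list's median was -0.21.

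Genes that load peptides onto MHC class I were lower on HFD, again with 0 called. Of 15 tested, 13 were lower and 2 higher, 7 were lower without overlap (46.7% against 8.67%), and the median was -0.51. The median was -0.28 without chow replicate 2 and -0.34 without HFD replicate 2. H2-K1, a classical class I heavy chain, had 10.22, 10.25 and 10.19 on HFD and 11.08, 11.28 and 10.91 on chow. The 3 HFD arrays agreed within 0.1 and lay below every chow array. The difference was -0.87 ± 0.20 (limma adjusted p = 0.0741). Tap1, a subunit of the peptide transporter, differed by -1.18 ± 0.29 (adjusted p = 0.122), Psmb9, an immunoproteasome subunit, by -1.13 ± 0.36 (adjusted p = 0.53), and B2m, the class I light chain, by -0.33 ± 0.14 (adjusted p = 1.0). Class I genes are known interferon targets. The 10 class II genes had a median of -0.10 and 0 without overlap.

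Lipid genes gave small differences for the most part, and none was called. Angptl4, a secreted inhibitor of lipoprotein lipase and a classical PPAR target, was among the 6 genes higher by 2-fold without overlap. It stood at 5.28, 5.73 and 5.00 on HFD and 3.99, 3.84 and 3.82 on chow. All HFD arrays lay more than 1 log2 unit above all chow arrays, a difference of 1.46 ± 0.71 (limma adjusted p = 1.0). In the fit of the 6 arrays alone Angptl4 passed (adjusted p = 0.0382), and in that of the 12 Freising arrays it did not (0.406). Pdk4, which spares glucose by blocking pyruvate dehydrogenase, had 9.37, 8.88 and 8.33 on HFD and 8.45, 7.66 and 7.81 on chow. Its groups overlapped by 1 pair of arrays.

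The 39 tested fatty acid oxidation and PPAR target genes had a median of 0.07. Of these, 25 were higher and 14 lower, 6 higher without overlap (against 7.14% of all genes) and 3 lower without overlap (7.69% against 8.67%). Acadm, a medium-chain dehydrogenase, differed by 0.30 ± 0.24, Eci2, an enoyl-CoA isomerase, by 0.57 ± 0.31, and Plin5, a droplet coat protein of oxidising cells, by 0.37 ± 0.31. Cpt1a, the gate of mitochondrial fatty acid entry, differed by 0.07 ± 0.20, and the droplet protein Plin2 by 0.19 ± 0.36. The adjusted p of these 5 genes was 1.0 in limma.

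Cholesterol synthesis genes were lower in 18 of 19 cases, with a median of -0.27 and 5 lower without overlap (26.3% against 8.67%). Fdft1, squalene synthase, had 9.69, 9.49 and 9.93 on HFD and 10.06, 10.38 and 10.12 on chow. The groups did not overlap, and the difference was -0.48 ± 0.15 (limma adjusted p = 0.482). Insig1, the sterol-regulated anchor of this pathway, had 8.57, 8.66 and 8.67 against 9.86, 8.98 and 8.96, with chow replicate 1 furthest away. Of the other enzymes, Sqle differed by -0.36 ± 0.26, Cyp51 by -0.41 ± 0.31 and Dhcr7, the exception, by 0.15 ± 0.18. With HFD replicate 2 left out the list median was -0.17, and with HFD replicate 3 left out it was -0.37.

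Of 32 fatty acid synthesis genes, 20 were lower and 12 higher, with a median of -0.12. Agpat2, an acyltransferase of triglyceride synthesis, had 8.82, 8.91 and 8.97 on HFD and 9.49, 9.64 and 9.57 on chow, a difference of -0.67 ± 0.23 (limma adjusted p = 0.679). Fasn, fatty acid synthase, differed by -0.11 ± 0.16 and Scd1, the stearoyl-CoA desaturase, by -0.01 ± 0.71. Lipg, the endothelial lipase, had 3.77, 4.86 and 4.79 against 5.45, 5.97 and 5.52. Its difference was -1.17 ± 0.37 (adjusted p = 0.53), while the 38 lipid transport and droplet genes had a median of 0.05.

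**Figure D3:**
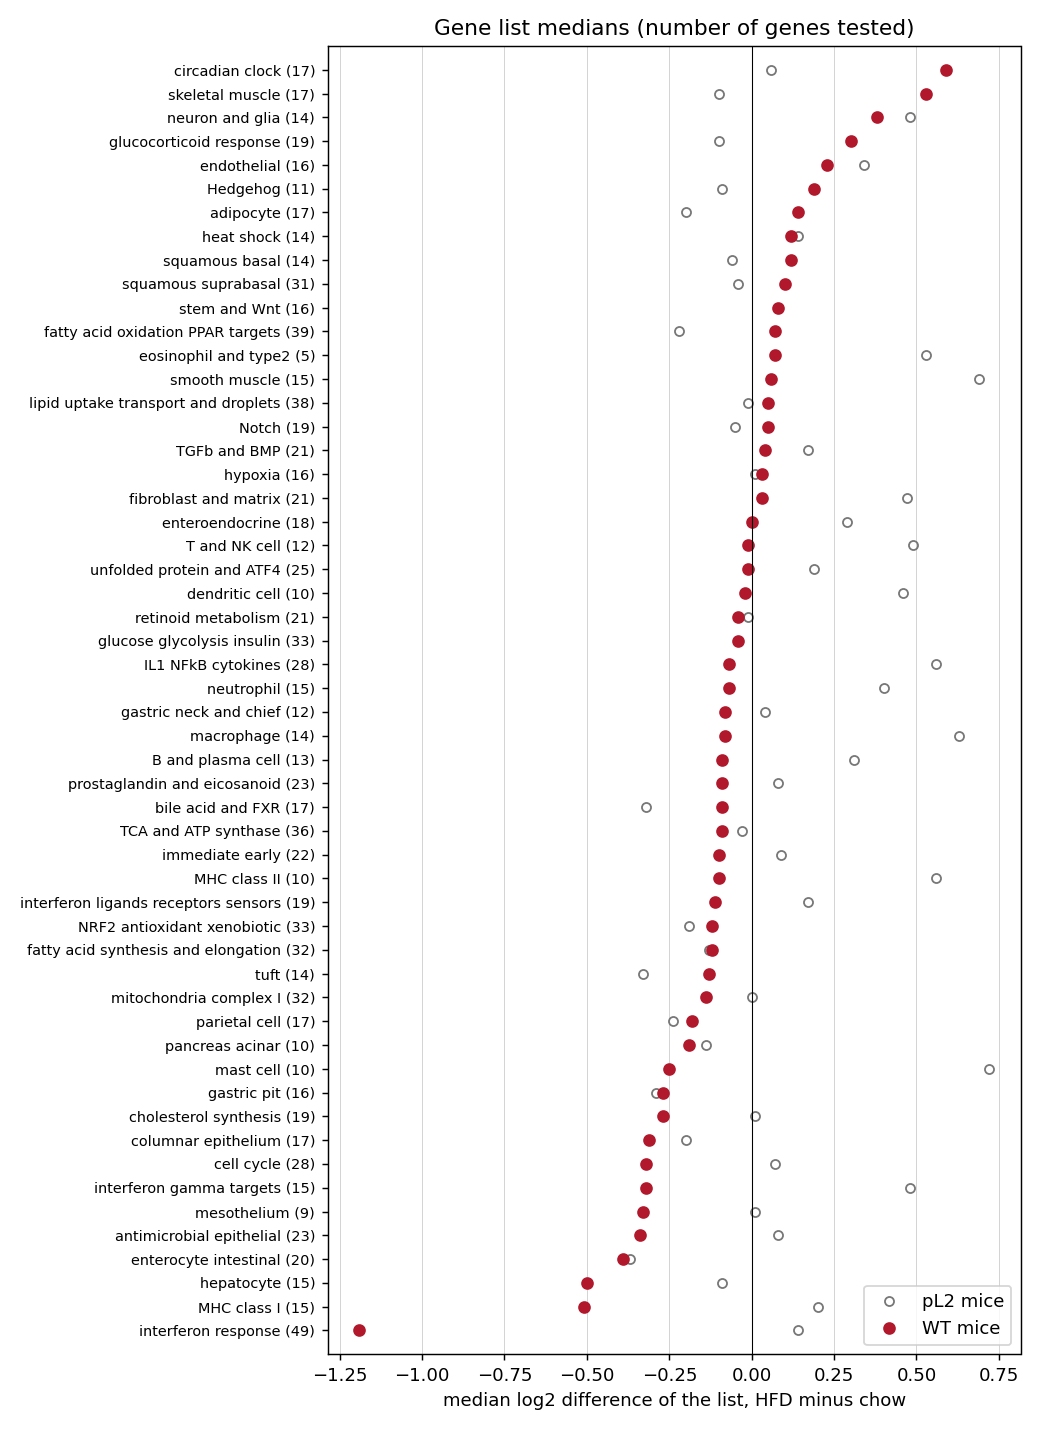
Each row is 1 gene list with the number of genes tested; the horizontal axis gives the median log2 difference HFD minus chow over the list, filled for WT mice and open for pL2 mice. In WT mice the interferon response list lies furthest left at -1.19, followed by the MHC class I list at -0.51, and the circadian list lies furthest right at 0.59; an open point hidden behind a filled point has the same median.

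The circadian clock list had the highest median of the 55 lists, 0.59 over 17 tested genes, against 0.005 for all genes. None was called, 12 were higher and 5 lower. The median was 0.26 with the mean of all entries of a symbol, where the skeletal muscle list, at 0.40, ranked above it, as it did with the stricter filter (0.77 against 0.59) and without HFD replicate 1, HFD replicate 2 or chow replicate 3. The positive differences, from the largest, were Dbp at 1.40 ± 0.55, Bhlhe41 at 1.11 ± 0.34, Ciart at 1.08 ± 0.48, Hlf at 1.07 ± 0.34, Per3 at 1.00 ± 0.39, Nr1d1 at 1.00 ± 0.43 and Nr1d2 at 0.88 ± 0.33. Per1, Tef, Bhlhe40, Cry2 and Rora followed at 0.72, 0.59, 0.26, 0.22 and 0.21. These genes include outputs of the clock and repressors of its activators. The negative differences were Arntl, the core activator, at -0.82 ± 0.34, Npas2, its partner, at -0.68 ± 0.41, Nfil3, which represses the targets of Dbp, at -0.41 ± 0.27, Clock at -0.21 and Cry1 at -0.06. The limma adjusted p of the 17 genes ran from 0.47 (Bhlhe41) to 1.0.

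The arrays within HFD differed from each other in these genes. Dbp, a factor that binds D-boxes, had 8.01, 8.44 and 5.65 on HFD and 6.72, 5.91 and 5.27 on chow. HFD replicates 1 and 2 were above all chow arrays and HFD replicate 3 was among them. Nr1d2, a repressor of Arntl, gave 8.26, 8.35 and 6.47 against 7.42, 6.84 and 6.19, and Arntl itself, which peaks in the opposite phase, gave 6.87, 6.45 and 7.89 against 7.74, 7.86 and 8.08. Hlf, a D-box factor related to Dbp, was the only clock gene without overlap, at 7.21, 7.11 and 6.26 against 6.03, 5.59 and 5.73. The list thus had 1 of 17 genes higher without overlap (against 7.14% of all genes) and 0 lower (against 8.67%).

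HFD replicate 3 thus stood with the chow arrays in most clock genes. Without it limma called Bhlhe41 (difference 1.64, adjusted p = 0.0136) and Nr1d2 (1.49, adjusted p = 0.0136), and the list median was 0.84. Without HFD replicate 2 the differences were 0.66 for Bhlhe41 and 0.55 for Nr1d2, both with an adjusted p of 1.0, and without HFD replicate 1 they were 1.03 and 0.59. The list median was 0.39 without HFD replicate 1, 0.41 without HFD replicate 2 and 0.39 without chow replicate 3. With limma's array weights, which give less weight to arrays that deviate more, 7 clock genes were called higher and 1, Arntl, lower (-1.04, adjusted p = 0.0277). Over all 15242 genes tested that setting called 133 higher and 282 lower, against 0 and 25 in the main fit. The hour of dissection was not given, and its part in the result was not tested.

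The promoters of 2 clock genes show the sequences through which these factors are known to act. They are the 250 bases before the RefSeq transcription start on GRCm38.p6, Per3 at chr4:151044666-151044915 and Bhlhe41 at chr6:145865421-145865670, both read on the minus strand. Capitals in Per3 mark TTAT followed directly by GTAA, a D-box that Dbp, Hlf and Nfil3 bind, and capitals in Bhlhe41 mark CACGTG, the E-box that Arntl and Clock bind.
Per3: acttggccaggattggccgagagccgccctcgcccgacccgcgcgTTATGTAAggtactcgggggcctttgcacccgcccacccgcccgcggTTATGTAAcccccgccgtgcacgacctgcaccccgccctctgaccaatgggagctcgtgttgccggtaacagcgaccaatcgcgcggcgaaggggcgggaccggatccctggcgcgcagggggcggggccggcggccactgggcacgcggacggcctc
Bhlhe41: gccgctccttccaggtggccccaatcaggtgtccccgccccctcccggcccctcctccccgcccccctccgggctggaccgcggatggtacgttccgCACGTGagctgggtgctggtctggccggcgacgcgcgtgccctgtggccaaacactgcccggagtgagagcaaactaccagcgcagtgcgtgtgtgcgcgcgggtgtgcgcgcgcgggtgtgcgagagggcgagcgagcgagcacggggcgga
Searched on both strands of the RefSeq table's windows, which run from 250 bases before to 50 after the start, the D-box letters were in 1.11% of 27025 genes and in 1 of 16 tested clock genes with an entry, Per3 alone, which holds it at 205 and 158 bases before the start. CACGTG, which reads the same on both strands, was in 8.09% of genes and in 5 of the 16 clock genes. Among the 11846 tested genes with an entry, 10.8% held it. In Bhlhe41 it begins 153 bases before the start. A match describes the letters and says nothing about binding in these samples.

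**Figure D4:**
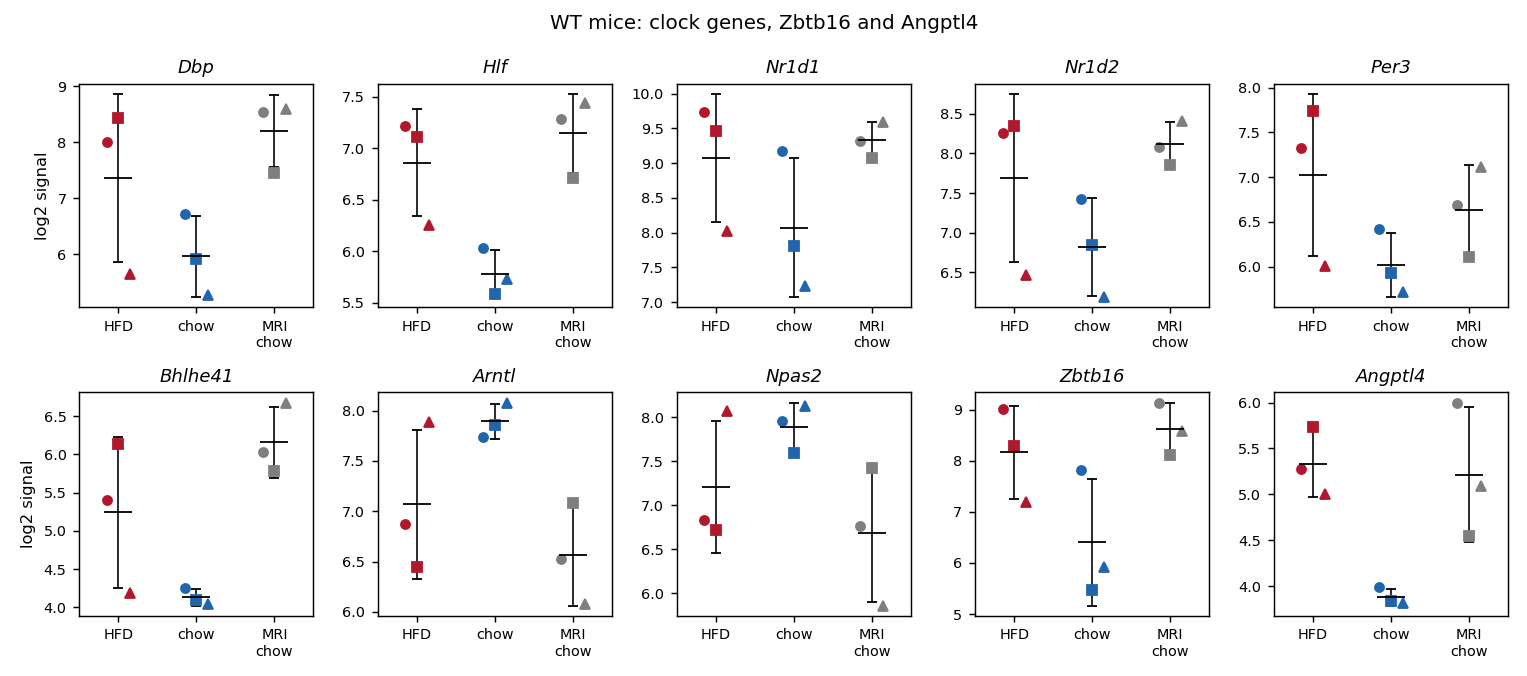
Log2 signal of 8 clock genes, Zbtb16 and Angptl4 in WT mice on HFD and chow from Freising and on chow from MRI; circles, squares and triangles are replicates 1, 2 and 3 and the bars give the mean ± SD (n = 3). In Dbp, Nr1d2, Per3 and Bhlhe41 the HFD triangle lies with the chow points and the other 2 HFD points above them, and in Arntl and Npas2 the order is turned.

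Zbtb16, a zinc finger factor induced by glucocorticoids, had the largest positive difference of all genes tested. It stood at 9.01, 8.28 and 7.20 on HFD and 7.81, 5.48 and 5.92 on chow, so that the groups overlapped through HFD replicate 3 and chow replicate 1. The difference was 1.76 ± 0.71 (limma adjusted p = 1.0). Fam107a, another glucocorticoid-induced gene, had 6.42, 5.37 and 5.25 against 5.03, 4.74 and 4.41, a difference of 0.95 ± 0.40 (adjusted p = 1.0). The 19 tested glucocorticoid response genes had a median of 0.30, with 13 higher, 6 lower and 2 of 19 higher without overlap (against 7.14% of all genes). Fkbp5, a classical target, differed by 0.57 ± 0.47, Tsc22d3 by 0.30 ± 0.34, Klf9 by 0.45 ± 0.34 and Sgk1 by -0.27 ± 0.29. The median ran from 0.12 without HFD replicate 1 to 0.61 without HFD replicate 3.

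None of the genes with the smallest p-values on the higher side was called. Bhlhe41 and Hlf of the clock list were among them, and the others belonged to no list. Klf11, a Sp1-like repressor linked to insulin gene control, led them at 6.55, 6.41 and 6.23 on HFD against 5.74, 5.59 and 5.83 on chow. Its groups stood clearly apart, with a difference of 0.67 ± 0.17 (limma adjusted p = 0.122). Slc25a27, a mitochondrial carrier of the uncoupling protein family, had 6.49, 6.24 and 6.38 against 5.47, 5.57 and 5.80. Rasa3, a Ras GTPase-activating protein, differed by 0.70 ± 0.21, Kank3, of the endothelium, by 0.76 ± 0.24, and Sirt1, an NAD-dependent deacetylase, by 0.45 ± 0.14. The adjusted p of these 4 genes lay between 0.468 and 0.53. Zfp566, Angel2, Prpf18, Kmt5b, Synrg and Clasp2 differed by 0.36 to 0.49.

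On the lower side, the genes outside the interferon and MHC lists that ranked next after those called were partly interferon-linked as well. Ifit1bl1, a relative of Ifit1, had 4.53, 3.58 and 4.03 on HFD against 7.36, 7.61 and 6.93 on chow (difference -3.26 ± 0.75, limma adjusted p = 0.0652). Adar, the RNA-editing enzyme, differed by -0.70 ± 0.18 (adjusted p = 0.188). Ctsb, a lysosomal cysteine protease, had 10.68, 10.62 and 10.97 against 11.28, 11.37 and 11.30. The difference was small and tight, -0.56 ± 0.14 (adjusted p = 0.0985), and it passed without HFD replicate 3 (-0.67, adjusted p = 0.0482), while leaving out any other array gave adjusted p of 0.211 to 0.744 and the 12 Freising arrays gave 0.203. Prim2, a DNA primase subunit, differed by -0.91 ± 0.23 (adjusted p = 0.113), Slc6a20a, a proline transporter, by -1.26 ± 0.33 (adjusted p = 0.188) and Ankfy1, an endosomal protein, by -0.46 ± 0.12 (adjusted p = 0.222). Ranbp3l, Mitd1 and Tor3a differed by -1.31, -0.71 and -1.02.

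Cell cycle genes were lower in 26 of 28 cases with a median of -0.32, and 1 was lower without overlap (3.57% against 8.67% of all genes). Mki67, the proliferation antigen, stood at 7.44, 7.64 and 8.49 on HFD and 7.97, 8.13 and 8.28 on chow. Ccnb2, a mitotic cyclin, gave 6.76, 6.83 and 7.85 against 7.44, 8.03 and 7.98. HFD replicates 1 and 2 were low and HFD replicate 3 was level with chow, and the list means were 5.93, 6.07 and 6.63 on HFD against 6.39, 6.55 and 6.56 on chow, and the median was -0.58 without HFD replicate 3 and -0.20 without HFD replicate 1.

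Among mitochondrial genes, 21 of 32 complex I genes were lower (median -0.14, but -0.05 without HFD replicate 3, -0.06 without chow replicate 1 and -0.07 with cyclic loess) and 28 of 36 genes of the citric acid cycle, later complexes and ATP synthase (median -0.09). Cycs, cytochrome c, had 10.02, 10.15 and 10.07 against 10.37, 10.58 and 10.29, a difference of -0.34 ± 0.12 (limma adjusted p = 0.715). Of 33 antioxidant and xenobiotic genes 25 were lower, 11 without overlap (33.3% against 8.67%), with a median of -0.12. Nqo1, a quinone reductase of the NRF2 response, had 9.16, 9.32 and 8.79 against 9.97, 9.50 and 9.87, and Gsta4, a glutathione transferase, 11.49, 11.48 and 11.37 against 11.83, 11.84 and 11.72. Their differences were -0.69 ± 0.45 and -0.35 ± 0.14 (adjusted p = 1.0 and 0.993).

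Genes named in the genotypes of the study's other mice, and 2 genes of neutrophil recruitment, differed little between the diets. Il1b had 4.08, 4.36 and 4.35 on HFD and 3.91, 4.22 and 4.56 on chow. Nr1h4, the bile acid receptor FXR, differed by -0.13 ± 0.37, Notch1 by 0.05 ± 0.22, Notch2 by 0.28 ± 0.22, Lgr5, a stem cell marker, by -0.04 ± 0.47 and Dclk1, a tuft cell marker, by 0.30 ± 0.22 (limma adjusted p = 1.0 for each). Cxcr2 and Cxcl1, a neutrophil chemokine receptor and its ligand, differed by 0.36 ± 0.49 and 0.01 ± 0.44.

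Markers of other cell types differed in part through single arrays. Skeletal muscle genes, from the striated muscle of the oesophageal wall, had list means of 3.87, 3.69 and 5.47 on HFD and 3.73 to 4.02 on chow, so that the median of 0.53 over 17 genes was -0.02 without HFD replicate 3. Hepatocyte genes had means of 3.92 to 4.19 on HFD and 5.54, 4.26 and 4.06 on chow, where replicate 1 stood out. The immune cell lists had medians from -0.25 (mast cell) to 0.07 (eosinophil), and the sign of the macrophage and T cell medians turned in 2 alternative settings each. The macrophage list means were 6.08 to 6.56 and 6.12 to 6.73. Hdc, which makes histamine in mast and enterochromaffin-like cells, stood at 6.46, 6.22 and 6.04 on HFD against 7.02, 7.54 and 7.23 on chow (-1.02 ± 0.41, limma adjusted p = 1.0). Mesothelial genes, of the outer lining of the organ, were lower in 9 of 9 cases with a median of -0.33, and their list means were 4.95, 5.00 and 4.75 on HFD against 5.48, 5.16 and 5.07 on chow, without overlap. Of the mesothelial genes, Krt19 is also on the columnar list. Endothelial genes were higher in 13 of 16 cases (median 0.23) and nerve and glial genes in 13 of 14 (median 0.38), with overlapping list means. The medians of these 3 lists kept their sign in all settings run, 0 of their genes were called, and their part in the other results was not tested. Xist, expressed from the inactive X chromosome, was between 3.90 and 4.53 and the Y-linked Uty between 7.13 and 7.94 in all 6 arrays, so both diets had the transcript pattern of males.

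The interferon response list had the lowest median of the 55 lists. Of its 49 tested genes 18 fell, 44 were lower, 35 were lower without overlap (71.4% against 8.67% of all genes), and the median was -1.19. The list means were 5.47, 5.44 and 5.88 on HFD and 6.54, 7.28 and 6.81 on chow, and they ran from 5.07 to 6.18 in the other 42 arrays. The chow arrays were thus the highest of all 48, and the HFD arrays lay within the range of the remaining 42. In 18 of the 25 called genes the 3 chow arrays were above all 45 other arrays, and in 23 the HFD arrays lay within the range of those 42. The 45 include the HFD arrays, against which these genes were called, so part of the first count was fixed beforehand. Neither count was made over all genes tested.

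By role, a list of 19 interferon ligands, receptors and upstream sensors had a median of -0.11 with 0 called: Ifnar1 and Ifnar2, the type I receptor chains, differed by 0.08 ± 0.15 and 0.17 ± 0.21, Ifnlr1, the type III receptor chain, by -0.27 ± 0.26, and Jak1, its kinase, by 0.07 ± 0.10. Among the transcription factors, Stat2 stood at 6.59, 6.76 and 6.99 on HFD and 7.80, 8.49 and 7.76 on chow (-1.23 ± 0.24, limma adjusted p = 0.0101). Irf7, which amplifies the response, stood at 5.94, 5.81 and 6.55 against 8.07, 8.69 and 8.40 (-2.29 ± 0.50, adjusted p = 0.033). In both the groups were separate.

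Helicases that sense viral RNA, which are themselves on the response list, fell: Ddx60 by 3.12 ± 0.53, Dhx58 by 2.05 ± 0.33 and Ifih1 by 1.50 ± 0.31 (limma adjusted p = 0.00297, 0.00134 and 0.021). Effectors fell as well. Mx1, a GTPase that traps viral nucleoprotein, had 3.05, 3.50 and 3.76 on HFD and 5.95, 6.70 and 6.00 on chow, a 6.85-fold difference of -2.78 ± 0.24 (adjusted p = 3.67e-09). Oas3, which makes the activator of RNase L, had 4.36, 4.24 and 4.51 against 6.45, 7.36 and 6.91. Isg15, a ubiquitin-like modifier, had 4.79, 4.30 and 4.78 against 6.39, 5.99 and 6.05, and Usp18, which removes it, 6.09, 5.87 and 6.94 against 8.65, 9.55 and 8.62. These groups did not approach each other, and the 3 genes had adjusted p of 0.0101, 0.00531 and 0.0101.

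Slfn4, a myeloid gene of the Schlafen family, had 4.65, 4.17 and 4.56 on HFD against 7.25, 7.92 and 7.25 on chow (-3.01 ± 0.46, limma adjusted p = 0.000663). Gm20234, the non-coding gene within Slfn2, had the largest difference of the 25, at 3.56, 3.74 and 3.45 against 6.16, 7.84 and 7.24 (-3.49 ± 0.36, adjusted p = 1.53e-07). Slfn2 itself differed by -0.98 ± 0.33 (adjusted p = 0.603), and the family members Slfn1 and Slfn8 by 0.27 ± 0.41 and 0.23 ± 0.36. Within the Schlafen genes the difference was thus uneven. Of 15 interferon gamma targets, 0 were called and the median was -0.32, with Igtp, an immunity-related GTPase, at -2.24 ± 0.59 (adjusted p = 0.188) and Gbp4, a guanylate-binding protein, at 0.71 ± 0.42.

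The promoters of 2 of these effectors and of Reg3g are shown because they differ in the sequence through which interferon factors are known to act. They are the 250 bases before the RefSeq start on GRCm38.p6, Isg15 at chr4:156200819-156201068 (minus strand), Ifit1 at chr19:34640639-34640888 (plus strand) and Reg3g at chr6:78468875-78469124 (minus strand). Capitals mark GAAA, then any 2 bases, then GAAA, the repeat at the core of the interferon-stimulated response element, on either strand.
Isg15: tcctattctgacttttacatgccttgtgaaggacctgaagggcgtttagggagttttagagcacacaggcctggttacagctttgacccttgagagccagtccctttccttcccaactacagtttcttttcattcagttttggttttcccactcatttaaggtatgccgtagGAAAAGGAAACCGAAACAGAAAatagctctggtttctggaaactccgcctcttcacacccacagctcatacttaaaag
Ifit1: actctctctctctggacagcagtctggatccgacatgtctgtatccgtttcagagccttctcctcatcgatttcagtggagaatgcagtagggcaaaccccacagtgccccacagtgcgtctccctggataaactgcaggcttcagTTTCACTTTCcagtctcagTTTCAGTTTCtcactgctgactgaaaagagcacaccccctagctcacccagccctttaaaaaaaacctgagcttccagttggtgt
Reg3g: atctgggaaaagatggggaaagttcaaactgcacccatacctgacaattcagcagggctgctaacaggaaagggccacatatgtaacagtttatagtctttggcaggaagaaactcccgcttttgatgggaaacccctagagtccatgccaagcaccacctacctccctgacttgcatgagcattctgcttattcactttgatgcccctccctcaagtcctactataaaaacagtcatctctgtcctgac
Isg15 holds 3 overlapping matches, which begin 78, 72 and 66 bases before the start, and Ifit1 holds 2 on the other strand, at 104 and 85. Reg3g has no match in this window, which says only that these letters are not in it. Of the 25 called genes 19 had an entry, and 9 of those held the motif in that window, on to 50 bases past the start (47.4%), against 3.99% of 27025 genes in the table. Among the 11846 tested genes with an entry, 3.66% held it. Of the 7 called genes outside the interferon lists, all with an entry, only 1 held it. Ifit1 stood at 4.96, 5.13 and 6.61 on HFD and 7.68, 8.98 and 7.52 on chow (-2.49 ± 0.51, limma adjusted p = 0.0173).

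The same diet contrast in pL2 mice of the same facility and age shared no array with the WT contrast. In pL2 mice 0 genes were called (0.0%; smallest limma adjusted p = 0.233), with 872 at an unadjusted p below 0.05. The 25 genes that fell in WT mice differed by -0.55 to 0.53 in pL2 mice, with a median of 0.02. Reg3g differed by 0.37 ± 0.59 and Lyz1 by 2.45 ± 1.10 in pL2 mice, against -2.71 and -2.37 in WT mice. Zbtb16 differed by -1.21 ± 0.71 and Pdk4 by -1.29 ± 0.54, against 1.76 and 0.89. Duox2 (-0.98 ± 0.54), Muc13 (-0.69 ± 0.72) and Vil1 (-0.61 ± 0.60) were negative in both genotypes.

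Whether the diet difference itself differed between genotypes was tested in the same fit, and 3 genes passed (0.0197%). The pL2 difference minus the WT difference was 3.49 for Gm20234 (limma adjusted p = 0.000938), 2.22 for Mx1 (adjusted p = 0.00147) and 3.55 for Slfn4 (adjusted p = 0.0187). At an unadjusted p below 0.05 there were 885 genes. With the 12 Freising arrays alone, which are also the groups compared, 0 genes passed this test. For Reg3g the test gave an adjusted p of 0.341, for Lyz1 0.582, for Zbtb16 0.643 and for Dbp 0.93, so a difference between genotypes was not shown for them. Sample titles ended in the same suffix in 3 of 3 pL2 chow, 2 of 3 pL2 HFD and 0 of 6 WT samples from Freising. Its meaning was not in the labels, and its part in the result was not tested.

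**Figure D5:**
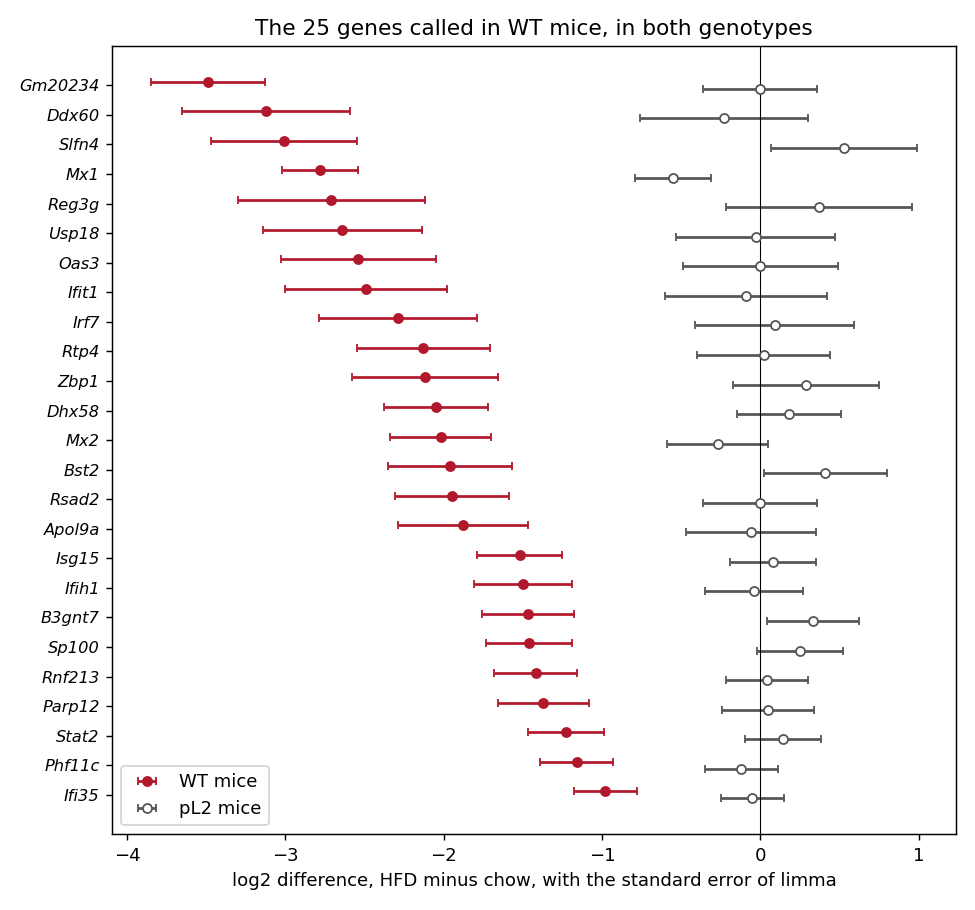
Log2 difference HFD minus chow of the 25 genes called in WT mice, with the standard error of the fit, filled for WT and open for pL2 mice (3 against 3 arrays each). The WT values run from -3.49 to -0.98 and the pL2 values from -0.55 to 0.53.

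WT mice on chow were also present from the MRI facility, at 12 months, and their levels are given beside the 2 Freising groups. For 24 of the 25 called genes the 3 Freising chow arrays lay above all 3 MRI arrays, and for 22 the Freising HFD arrays overlapped the MRI arrays. The 25 genes were called for Freising chow arrays above the HFD arrays, and these counts were not made over all genes tested. Mx1 stood at 3.33, 3.81 and 2.85 at MRI and Reg3g at 4.36, 4.91 and 4.92, both near the HFD arrays. Zbtb16 stood at 9.14, 8.12 and 8.59 and Dbp at 8.55, 7.46 and 8.60, above the Freising chow arrays. Angptl4, at 6.00, 4.55 and 5.09, also lay above the Freising chow arrays. Lypd8, at 11.48, 11.89 and 9.52, lay below them, and Duox2, at 7.74, 8.53 and 5.18, spanned both groups. The MRI mice differed from the Freising mice in the sex-linked transcripts as well as in facility, with Xist between 10.56 and 10.90 and Uty between 2.81 and 2.93, so that facility and sex cannot be told apart in this comparison of levels.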

How the data were processed

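Whole tissue of the squamocolumnar junction and cardia was measured on 48 Affymetrix arrays in 16 groups of 3, of which 6 arrays form the comparison. The deposited values are log2 signals, made by the authors with RMA in Affymetrix Expression Console, per the submitters' processing notes; software version and genome build are not given in the sources used here. Array medians ran from 4.03 to 4.27. Of 34390 array entries, 23521 carried 1 gene symbol in the platform annotation, which can be old, 1814 several and 9055 none; for each of 22180 symbols the entry with the highest overall mean was kept. A gene entered the test (15242 did) if its signal exceeded the median of the array on 3 or more arrays. With limma 3.58.1 (R 4.3.3), each group had its own mean in a single fit of the 48 arrays (32 residual degrees of freedom), with moderated two-sided tests and Benjamini-Hochberg adjustment over all genes tested, and a gene was called at an adjusted p below 0.05. The script was tested on simulated data with known changes. Arrays have no read depth, so their number limits the precision.

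Members and lists were chosen with earlier results of these data known. Named genes were those called, the 15 smallest p-values in each direction outside the interferon and MHC lists among genes without overlap, the 15 largest differences of at least 2-fold in each direction without overlap, up to 4 members of each list by p-value, and genes of the study's question; further list members were named for their role after their values were seen. Of the list genes, 87 were unmatched and are not analysed here. Promoters are RefSeq sequences. The alternatives were other filters, entries, normalizations, array weights, moderation, covariates, sets of arrays and leaving out each array.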

Additional observations from a re-analysis of the deposited data

Results flagged for a closer look

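The diet difference differed between genotypes, by limma's test of the difference itself (pL2 difference minus WT difference), in 3 genes. For Gm20234 it was 3.49 log2 units (adjusted p = 0.000938), and it passed in 19 of 21 settings with an adjusted p of up to 0.216. For Mx1 it was 2.22 (adjusted p = 0.00147), also passing in 19 of 21 settings with an adjusted p of up to 0.216. For Slfn4 it was 3.55 (adjusted p = 0.0187), passing in 16 of 22 settings with an adjusted p of up to 0.351. In each gene the 3 WT HFD arrays all lay below the 3 WT chow arrays.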

How the results depend on the processing

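The 25 called genes in WT mice were 11 with the 12 Freising arrays alone (9 shared with the 25), 415 with array weights (133 higher and 282 lower, all 25 among them) and 35 in the fit of the 6 compared arrays (12 shared). The count was 29 with cyclic loess, 28 with median centring, 27 without the filter, 26 with trended robust moderation, 32 with squamous and smooth muscle covariates, 22 with the mean of all entries and 19 with the stricter filter, which left 6 of the 25 untested. Leaving out 1 array gave 5 to 25 calls, of which 5 to 20 were shared. Mx1 and Gm20234 were called in all 15 settings that tested them, and the stricter filter left both untested. The count of 0 in pL2 mice was 1 with array weights and 0 to 1 leaving out an array. The 3 interaction genes were 1 with the stricter filter, 0 with the Freising or compared arrays alone, 280 with array weights, 5 with covariates and 2 to 5 leaving out an array. The 6 genes higher by 2-fold without overlap became 10 to 28 when an array was left out, where fewer arrays make separation easier by construction. Other causes were not tested. Of 4216 values of 266 named genes under these settings, 110 lost the threshold, 82 gained it with the same sign and 4024 were counted as unchanged. Only the 25 called genes could lose it. Every other named gene counted as unchanged unless it gained the threshold, so the 4024 is no measure of how stable the calls were. Among genes called in the main fit 0 changed sign, and a change of sign in the other genes was not counted. Of 880 list medians, 783 moved by less than the SD of the list mean over the 3 HFD arrays, with the chow arrays not used for that spread. No paired analysis was possible because the labels give no replicate numbers that pair the groups; the numbers used here only name the samples.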
